A study of Homo sapiens with 8 samples.

Results

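RACK1 and 9 further genes that encode the machinery for sensing and clearing collided ribosomes were followed through 8 ribosome profiling (Ribo-seq) libraries. The cells were OVCAR3, a line established from a human ovarian carcinoma. The 10 genes were RACK1, ZNF598, EDF1, GIGYF2, ASCC3, ASCC2, PELO, HBS1L, NEMF and LTN1. They were taken by name from the 20165 gene regions in the count files, after the transcript identifiers of the regions had been matched to gene symbols. Every one of the 10 had a region of its own and enough footprints to be tested in both comparisons. ZNF598 alone was matched by the lengths of its untranslated and coding parts, because its transcript identifier has been retired, a rule that gave the right symbol for 1100 of 1116 regions with a known name (98.57%).

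Ribosomes that stop on an mRNA are run into by those behind them, and the collided pair presents a surface that quality control factors recognize. RACK1 sits on the head of the small subunit near the exit channel of the mRNA, where neighbouring ribosomes touch, and the ubiquitin ligase ZNF598 needs it to mark small subunit proteins at collisions. Helicases and rescue factors then take the ribosomes apart, ubiquitin ligases mark the unfinished protein for the proteasome, and repressor proteins shut down initiation on the same mRNA.

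The Ribo-seq libraries count the mRNA fragments that ribosomes protect from RNase, so they follow mRNA amount and ribosome load together, and these cannot be told apart here. In the RACK1 experiment, OVCAR3 cells carried the pTRIPZ vector with an shRNA against the cell's own RACK1, and the pInducer20 vector with RACK1 bearing an HA tag at its C terminus. Both vectors were delivered by lentivirus, the cells were drug-selected populations, and both vectors were switched on for 48 h with 1 µg/ml doxycycline. RACK1-WT cells re-expressed the wild-type protein, and RACK1-Mut cells a protein in which the acidic residues that carry mono-ADP-ribose (MAR) were replaced by asparagine or glutamine. In the siRNA experiment, OVCAR3 cells without these vectors received 30 nM control siRNA (siControl) or siRNA against OARD1, the gene for the ADP-ribose hydrolase TARG1 (siTARG1), and were harvested after 48 h. Each of the 4 groups had 2 libraries. The methods say of sequencing experiments in general that they were repeated on independent samples, and the labels do not say how these libraries were grown, so p-values measure the spread between libraries, whatever it holds. RACK1-Mut was compared with RACK1-WT and siTARG1 with siControl, to ask how the absence of the RACK1 modification sites or the loss of the hydrolase changed the footprints of the collision machinery.

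Coding footprints summed to between 3100947 and 6604190 per library. In the siTARG1 libraries OARD1, the gene targeted by the siRNA, had 7 and 6 coding footprints, against 138 and 58 in the siControl libraries. All 9 epithelial markers chosen for OVCAR3, such as PAX8, EPCAM and KRT8, had at least 10 coding footprints in every library. Of 6 markers of immune, stromal and endothelial cells with a region of their own, PTPRC and CD3E had at most 3 in any library, VWF 2 to 15 and COL1A2 7 to 34. CD68 had 17 to 54 and COL1A1 58 to 231. Of the 8 such markers listed, PECAM1 had no region, and PDGFRA, in a region shared with another gene, had 177 to 438. The part of such cells or of low expression in OVCAR3 was not tested.

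The sequences that define the re-expressed RACK1 lie within its coding sequence of 954 bases, and are given 5′ to 3′ as read from GRCh37 on the minus strand of chromosome 5. The start is shown because the insert was amplified, per the methods of the study, with a primer whose RACK1 part begins at the start codon, in capitals here, at chr5:180670777-180670800 in the first of 8 coding exons. The other stretches are shown because they hold the 3 codons that were replaced in RACK1-Mut, in capitals. The adjacent pair, coding for aspartate and glutamate, opens coding exon 4 (chr5:180666568-180666582), and the bases before it close coding exon 3 (chr5:180668492-180668503). The remaining aspartate codon lies in coding exon 5 (chr5:180666085-180666108).
RACK1 coding start: ATGactgagcagatgacccttcgt
RACK1 paired sites: tacactgtccagGATGAGagccactca
RACK1 remaining site: actgtctctccaGATggatccctc
The deposited counts are totals over a region, so footprints across these codons cannot be looked at apart, and whether footprints with replaced bases were lost in alignment was not tested.

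RACK1 carried by far the densest coding footprints of the 10 genes. Levels between genes are given as density, the coding footprints per kilobase of coding sequence and per 1000000 coding footprints of the library. RACK1 (chromosome 5, 180663897 to 180675096, minus strand) had a density of 3492 and 3695 with siControl and 3004 and 3339 with siTARG1. It had 4792 and 4903 in the RACK1-WT libraries and 3735 and 3616 in the RACK1-Mut libraries. RACK1-WT was thus the highest group and siTARG1 the lowest, with RACK1-Mut and siControl between them and overlapping each other. Among all 20165 regions RACK1 ranked between 10 and 26 by density.

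EDF1, a factor that binds collided ribosomes and recruits repressors, came next, at a mean density of 233.5 ± 16.8 in siTARG1 to 287.2 ± 18.9 in RACK1-Mut (SD, n = 2). RACK1 stood 12.8-fold to 18.6-fold above it in the 4 groups. The other members lay lower by a further step, and ASCC3, the helicase that pulls collided ribosomes apart, was at the bottom in every group, at 10.65 ± 1.66 to 13.25 ± 0.132. Between these ends the order changed with the experiment. In siControl cells ZNF598 came after EDF1 at 51.07 ± 1.68, followed by PELO, ASCC2, HBS1L, NEMF, GIGYF2 and LTN1 from 43.87 down to 23.28. PELO overlapped ASCC2 there, HBS1L overlapped NEMF, and NEMF overlapped GIGYF2. In RACK1-WT cells PELO came after EDF1 at 49.19 ± 0.334, followed by HBS1L at 38.8 ± 3.48, while ZNF598, at 29.12 ± 1.67, overlapped ASCC2.

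ZNF598 was the member whose coding density differed most between the experiments. It was 52.26 and 49.89 in siControl libraries and 70.29 and 67.92 in siTARG1 libraries, against 27.94 and 30.31 in RACK1-WT and 30.44 and 30.54 in RACK1-Mut libraries. Every library of the siRNA experiment was above every library of the RACK1 experiment. The experiments differ in vectors, doxycycline and transfection, which cannot be told apart, so this is given as a description. Whether the experiments were also sequenced apart is not given by the labels.

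**Figure D1:**
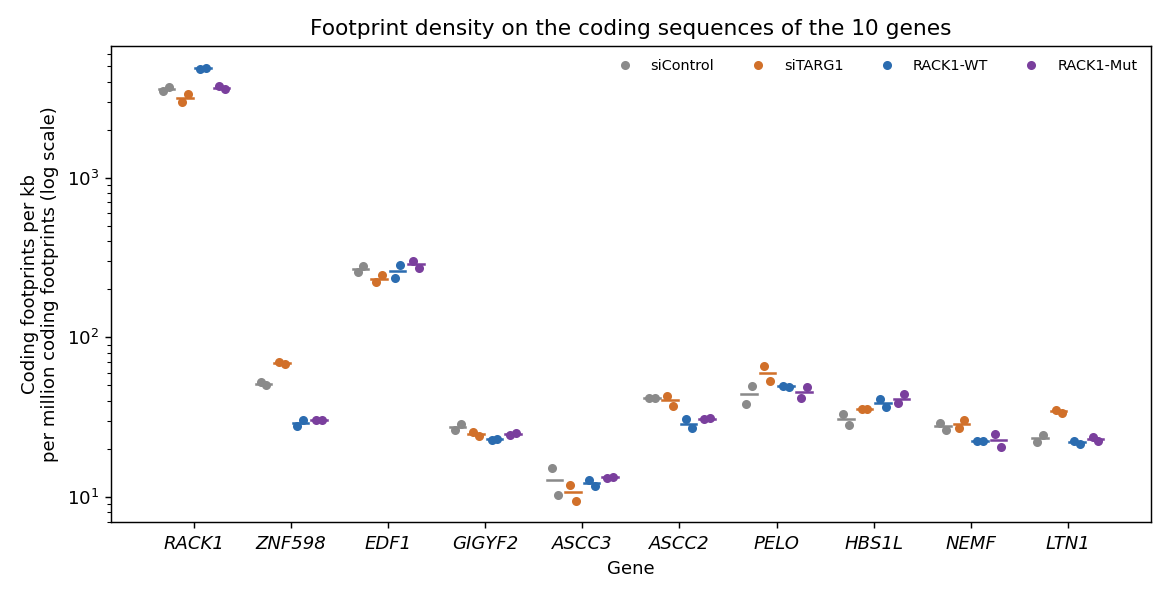
Coding footprint density (log scale; footprints per kilobase per 1000000 coding footprints) of the 10 genes in the 8 libraries, with a point per library and a line at the mean of each group. RACK1 lies between 3004 and 4903 in every library, EDF1 between 221.7 and 300.6, and the other members at or below 70.29.

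Footprints on the 5′ untranslated region (UTR) of RACK1 set the experiments apart far more than its coding footprints. In the siControl libraries the RACK1 5′ UTR carried 260 and 238 footprints, and with siTARG1 221 and 177. It carried 30 and 33 in the RACK1-WT libraries and 21 and 25 in the RACK1-Mut libraries, although these held up to 30190 footprints on the coding sequence. All 4 libraries of the RACK1 experiment were low, and the ranges of the experiments lay far apart.

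Set against the coding footprints of the same library, the siControl libraries had 1.85 and 2.18 RACK1 5′ UTR footprints per 100 coding footprints and the siTARG1 libraries 1.83 and 1.77. The RACK1-WT libraries had 0.0994 and 0.114 and the RACK1-Mut libraries 0.141 and 0.191. The mean over the 4 libraries of the siRNA experiment was 1.91 ± 0.184 and that over the 4 of the RACK1 experiment 0.136 ± 0.0402 (SD, n = 4), a 14-fold difference. In the library with the highest ratio of the RACK1 experiment, the share of 5′ UTR in 5′ UTR plus coding footprints had an exact 95% binomial interval of 0.123% to 0.281%, and in the lowest library of the siRNA experiment of 1.49% to 2.01%. These intervals cover counting error only. The difference is given as a description, since the experiments were not run as groups of the same design and the pattern was noticed in these data.

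The shift was not shared by the libraries as a whole. Over all genes, 5′ UTR footprints per 100 coding footprints were 4.39 in the siRNA experiment and 4.28 in the RACK1 experiment. Of the 2075 genes with at least 100 footprints in each of the 5′ UTR and the coding sequence over the 8 libraries, none had a lower log2 ratio of the RACK1 over the siRNA experiment than RACK1, at -3.92. The median of these genes was -0.05, and the 5th and 95th percentiles were -0.75 and 0.69.

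With all 8 libraries scaled together, the 5′ UTR of RACK1 stood at 7.11% of the siControl mean in RACK1-WT cells and at 8.19% in RACK1-Mut cells, and its coding sequence at 134% and 100%. The corresponding values in siTARG1 cells were 74.8% and 84.1%. The 3′ UTR of RACK1 held 15 footprints over the siRNA experiment and 3 over the RACK1 experiment, beside 47025 and 87044 on the coding sequence. The deposited lengths give RACK1 a 5′ UTR of 409 bases, whereas release 44 of the annotation, used here for names, gives the same transcript 106 bases, so where in the longer UTR the footprints lay is not known. In the RACK1 experiment, an insert that begins at the start codon, an shRNA against the cell's own mRNA, the vectors and doxycycline all come together. They cannot be told apart, nor from a sequencing run if the experiments were sequenced apart.

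**Figure D2:**
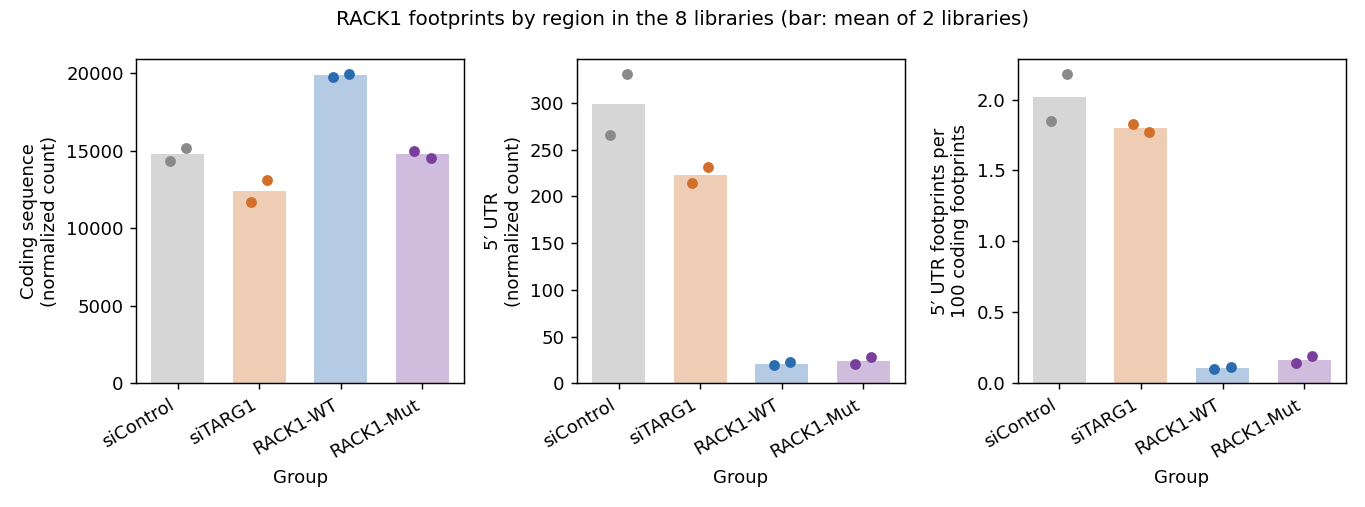
RACK1 footprints on the coding sequence and on the 5′ UTR (normalized counts, all 8 libraries scaled together), and 5′ UTR footprints per 100 coding footprints, by group, with a point per library and a bar at the mean. The coding counts lie between 11700 and 19950 in all libraries, while the 5′ UTR counts are at least 214 in the siRNA experiment and at most 27.7 in the RACK1 experiment.

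RACK1 was the only member whose coding footprints passed the test between RACK1-Mut and RACK1-WT cells, and they fell in RACK1-Mut cells. RACK1 footprints can come from the cell's own mRNA or from the re-expressed insert, which the counts do not separate. A difference in insert level between the cell populations was not tested. Of the 12520 genes tested in this comparison, 0.0799% were called at an adjusted p under 0.05, all of them lower, and of the 10 members 1 was called. RACK1 had 23330 and 23590 normalized counts in the RACK1-WT libraries and 17740 and 17270 in the RACK1-Mut libraries. The groups did not overlap, and the RACK1-Mut mean of 17510 ± 333 was 74.6% of the RACK1-WT mean of 23460 ± 183. The log2 fold change was -0.42 (SE 0.0601, 95% interval -0.54 to -0.30, adjusted p = 1.34e-08 in DESeq2). Without RACK1-Mut replicate 1 or replicate 2 the adjusted p was 0.102 or 0.265, at log2 fold changes of -0.44 and -0.40.

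A matching change on the 5′ UTR of RACK1 could not be resolved. Per 100 coding footprints, both RACK1-Mut libraries were above both RACK1-WT libraries, and the log2 change of the 5′ UTR-to-coding ratio was 0.63 with a 95% interval of -0.44 to 1.70 (adjusted p = 1.0). There were 21 to 33 footprints per library, and no change of this ratio was called. Its SE of 0.546 was close to the 0.525 between siTARG1 and siControl, where libraries held 177 to 260 footprints. The width of the interval therefore does not reflect the low counts alone. With a filter of 100 UTR footprints, chosen after seeing the data, the interval was -0.13 to 1.38.

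The other 9 members did not pass the test, with log2 fold changes from -0.14 to 0.12 and SEs from 0.118 to 0.164. Their 95% intervals reached down to -0.46 for PELO and up to 0.37 for EDF1 and ASCC2. Groups did not overlap for 4 of the 10 members, against 37.6% of all genes tested.

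Among the sensors, ZNF598 had 387.2 and 415.1 normalized counts in RACK1-WT libraries and 411.6 and 415.3 in RACK1-Mut libraries, a log2 difference of 0.04 (95% interval -0.22 to 0.31). Coding footprints of the ligase whose work depends on RACK1 therefore overlapped between the 2 groups, and its protein level was not measured. EDF1 had 540.3 and 639.0 against 669.2 and 613.0, a log2 difference of 0.12 (-0.12 to 0.37). GIGYF2, which with its partner EIF4E2 blocks new initiation on a stalled mRNA, had 462.2 and 462.5 against 481.9 and 499.6, a log2 difference of 0.09 (-0.16 to 0.33).

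The ASC-1 complex, in which ASCC3 is the helicase and ASCC2 binds the ubiquitin chains, showed log2 differences of 0.10 (-0.17 to 0.36) and 0.07 (-0.22 to 0.37). The rescue factors PELO and HBS1L, which enter a stalled ribosome as a pair much as release factors do, had log2 differences of -0.14 (-0.46 to 0.18) and 0.06 (-0.22 to 0.34). The PELO libraries stood at 292.2 and 286.0 in RACK1-WT and 241.0 and 284.8 in RACK1-Mut cells. NEMF, which holds the peptide on the split large subunit, and LTN1, the ligase that ubiquitylates it there, had log2 differences of -0.003 (-0.29 to 0.29) and 0.06 (-0.18 to 0.29).

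In siTARG1 cells, LTN1 and ZNF598 had more coding footprints than in siControl cells and RACK1 had fewer, whereas the other 7 members did not pass the test. Of 12056 genes tested, 16.4% were called at an adjusted p under 0.05, 7.18% higher and 9.19% lower, and of the 10 members 3 were called, 2 higher and 1 lower. Groups did not overlap for 8 of the 10 members, against 62.6% of all genes tested. By the fitted value 4 members were above and 6 below the siControl level, where 50.4% of all genes tested were above.

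LTN1 had 433.3 and 479.2 normalized counts in siControl libraries and 649.2 and 629.7 in siTARG1 libraries. The groups lay apart, at a log2 fold change of 0.49 (SE 0.130, 95% interval 0.24 to 0.75, adjusted p = 0.00198 in DESeq2), or 141% of the control level. ZNF598 had 524.7 and 500.7 against 668.4 and 652.2, its log2 fold change being 0.36 (SE 0.124, 0.12 to 0.61, adjusted p = 0.0236). Both of these genes encode ubiquitin ligases, ZNF598 acting on the small subunit of a collided ribosome and LTN1 on the peptide left on the large subunit. RACK1 went the other way, from 12320 and 13030 to 10040 and 11270, and its log2 fold change was -0.25 (SE 0.0688, -0.39 to -0.12, adjusted p = 0.00297). These calls rest on all 4 libraries, and that of ZNF598 was also lost with the replicate number in the model. Leaving out either library of either group, the adjusted p of ZNF598 rose to between 0.28 and 0.429. LTN1 kept its call without siControl replicate 2 alone (0.0421), and RACK1 lost it without siControl replicate 2 (0.179) and without siTARG1 replicate 1 (0.399).

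PELO had a fitted change of 0.38 but a wide interval of -0.03 to 0.80 (adjusted p = 0.222). Its libraries ran from 163.5 and 212.2 in siControl to 268.0 and 218.2 in siTARG1 cells, so that the nearest libraries of the groups almost met. Its partner HBS1L had 251.4 and 214.6 against 255.5 and 258.6, a log2 difference of 0.14 (-0.23 to 0.50, adjusted p = 0.702). EDF1 had 425.4 and 463.7 against 347.1 and 388.0, a log2 difference of -0.28 (-0.57 to 0.02, adjusted p = 0.213). EDF1 and PELO passed the threshold in edgeR's quasi-likelihood test, at adjusted p-values of 0.0448 and 0.0472, where 28.8% of all genes did.

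ASCC3 was the member whose libraries agreed least within a group, with 369.1 and 251.5 normalized counts in siControl and 273.8 and 221.5 in siTARG1 libraries. Its groups overlapped and its log2 difference was -0.33 (-0.73 to 0.07, adjusted p = 0.302). ASCC2 was steadier in siControl cells, at 350.7 and 349.3, against 343.8 and 300.3 in siTARG1 cells (log2 difference -0.12, -0.43 to 0.20). GIGYF2 had 386.7 and 418.4 against 352.1 and 339.6 (-0.22, -0.51 to 0.08). NEMF, which works with LTN1 on the same peptide, had 346.3 and 313.5 against 304.6 and 347.5, a log2 difference of -0.02 (-0.34 to 0.30), with overlapping groups.

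**Figure D3:**
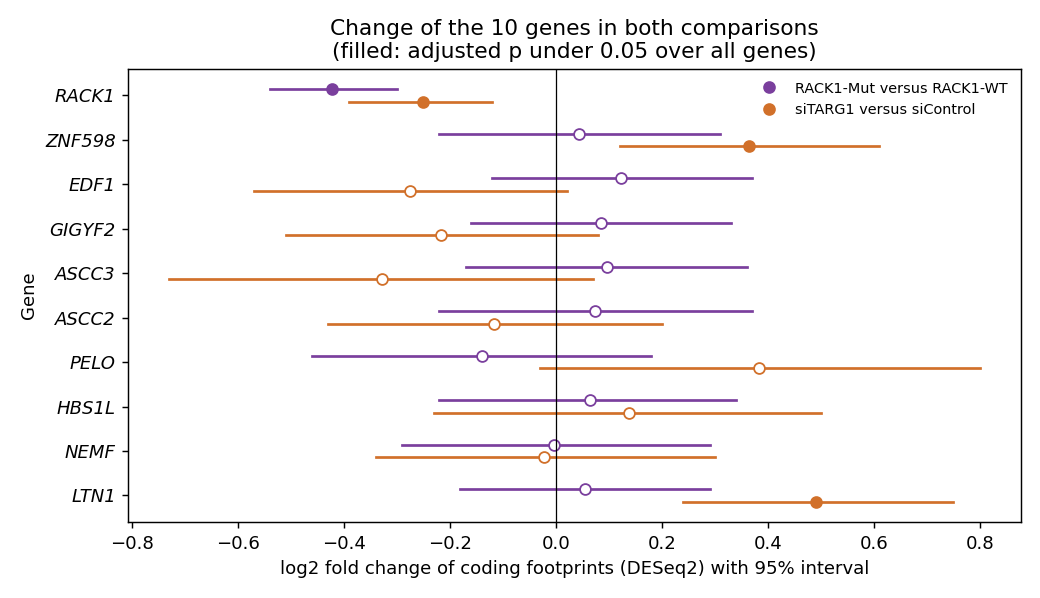
DESeq2 log2 fold changes of coding footprints (points) with 95% intervals (lines) for the 10 genes in both comparisons, filled where the adjusted p over all genes was under 0.05. In RACK1-Mut cells RACK1 alone is filled, at -0.42, and in siTARG1 cells RACK1 (-0.25), ZNF598 (0.36) and LTN1 (0.49) are.

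RACK1 was then set beside the ribosomal proteins of the small subunit, of which 28 of 32 listed had a region of their own. Its density was 2.41 and 2.55 times the median of these genes with siControl and 2.19 and 2.24 times with siTARG1. It was 3.59 and 3.87 times the median in the RACK1-WT libraries and 3.0 and 2.72 times in the RACK1-Mut libraries. All 4 libraries of the RACK1 experiment were above all 4 of the siRNA experiment, and in each library only 1 of the 28 genes was denser than RACK1. Counts of ribosomal protein genes are uncertain, since reads with many alignments were kept and near-identical copies exist.

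Between RACK1-Mut and RACK1-WT cells none of the 28 genes was called, and none of them had an unadjusted p under 0.05 in DESeq2 or was called by edgeR. Their log2 fold changes ran from -0.16 for RPSA to 0.12 for RPS25 with a median of -0.01, all above the -0.42 of RACK1. Between siTARG1 and siControl cells 24 of the 28 had values below 0, with a median of -0.08, against 0.003 over all genes tested. Of the 28, 1 was called higher and 7 lower, against 7.18% and 9.19% of all genes tested. Values of the 28 spanned -0.58 for RPS24 (adjusted p = 1.2e-10 in DESeq2) to 0.30 for RPS2 (adjusted p = 0.00262), and 4 of them were lower than RACK1. The fall of RACK1 in siTARG1 cells thus lay within the range of the small subunit genes, and that in RACK1-Mut cells outside it. Of these genes only RACK1 was knocked down and re-expressed in the RACK1 experiment.

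**Figure D4:**
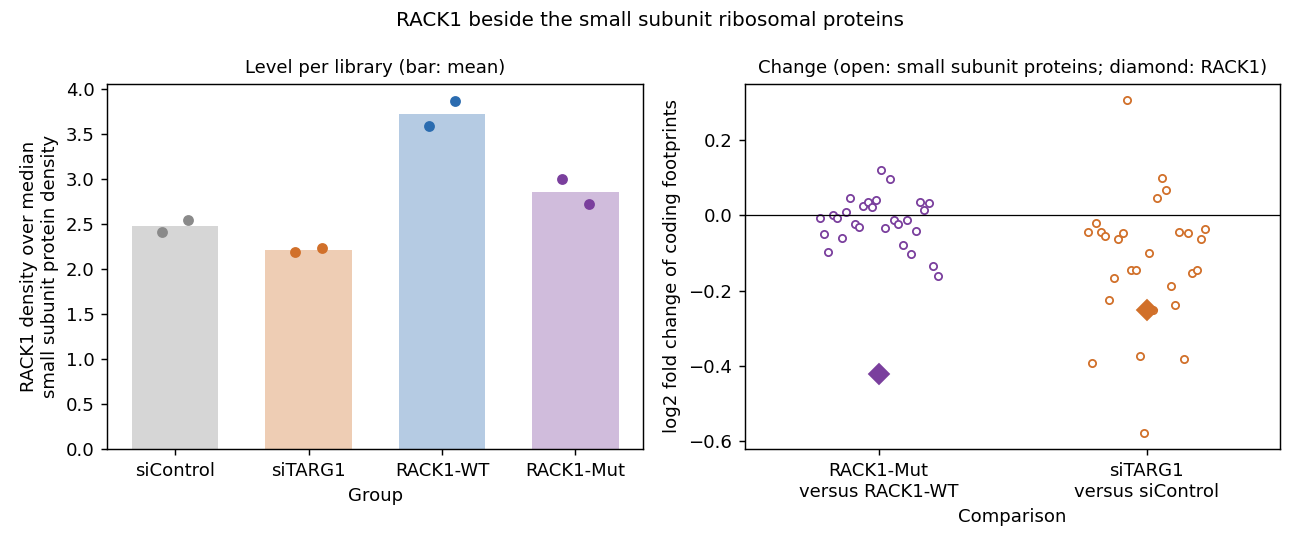
Left, RACK1 coding density over the median density of 28 small subunit ribosomal protein genes, with a point per library and a bar at the group mean (2.19 to 3.87 over the libraries). Right, log2 fold changes of these genes (open circles) and RACK1 (diamond), which lies below all 28 in RACK1-Mut cells and above 4 of them in siTARG1 cells.

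The 10 members are part of a wider list of 45 genes of the same pathway, all of which were tested in both comparisons, RPS10 through a region it shares with another gene. In RACK1-Mut cells RACK1 remained the only gene of the list to be called, and the 35 genes that are not members had log2 fold changes from -0.33 to 0.24 with a median of -0.03, against -0.002 over all genes tested. In siTARG1 cells 8 of the 45 were called higher and 4 lower, which is 26.7% against 16.4% of all genes tested, and the median of the list was 0.00, against 0.003 over all genes. The list was written with earlier results of these data known.

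By role, the rescue and splitting factors all had positive values in siTARG1 cells, with a median of 0.38 over 5 genes. Of these, 2 were called (40%), against 16.4% of all genes tested. ABCE1, the ATPase that splits ribosomes after PELO has entered, rose in normalized counts from 417.5 ± 3.74 to 626.3 ± 60.5 (log2 fold change 0.58, adjusted p = 0.000295). GTPBP1, a GTPase of the HBS1L family, rose by 0.59 (adjusted p = 0.0401), a call that was lost without a filter on low counts.

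Of the 9 genes that repress and degrade stalled mRNAs 5 were called, against 16.4% of all genes tested, 2 of them higher and 3 lower. GIGYF1, the paralog of GIGYF2, rose from 124.4 ± 42.8 to 260.6 ± 23.4 normalized counts (log2 fold change 1.05, adjusted p = 0.000172), while GIGYF2 itself was at -0.22 and not called. N4BP2, an endonuclease of the family that cuts mRNA at collisions in yeast and worms, rose by 1.03 (adjusted p = 0.0129). DDX6, the helicase of translational repression and decapping, fell by 0.48 on the log2 scale, from 791.3 ± 24 to 566.5 ± 2.81 (adjusted p = 0.000579). SKIC8, a subunit of the complex that feeds mRNA to the exosome, fell by 0.60 (adjusted p = 0.0213), and so did the helicase of that complex, SKIC2, by 0.42 (adjusted p = 0.029), a gene named here after its values were seen.

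Among sensors and ubiquitylation enzymes 3 of 13 genes (23.1%) were called in siTARG1 cells, against 16.4% of all genes tested. These were ZNF598 and RACK1, given above, and EIF2AK4, which encodes the kinase GCN2 that starts the integrated stress response at stalled ribosomes. EIF2AK4 rose from 94.55 ± 0.532 to 180.4 ± 5.63 normalized counts (log2 fold change 0.93, adjusted p = 0.00148). The 4 genes of the ASC-1 complex all had values below 0, from -0.33 to -0.12, and none was called. Of the 10 genes of nascent chain quality control LTN1 alone was called (10%). Of the 4 ribosomal proteins that are ubiquitylated at stalls, RPS2 was called, higher (25%). The calls of GTPBP1, N4BP2, SKIC2, SKIC8 and RPS2 were lost with the replicate number in the model. The calls of the list also depended on having all 4 libraries. With any library left out fewer of the 45 genes were called. The share called over all genes in those fits is not given here, so the loss cannot be set against that of all genes.

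**Figure D5:**
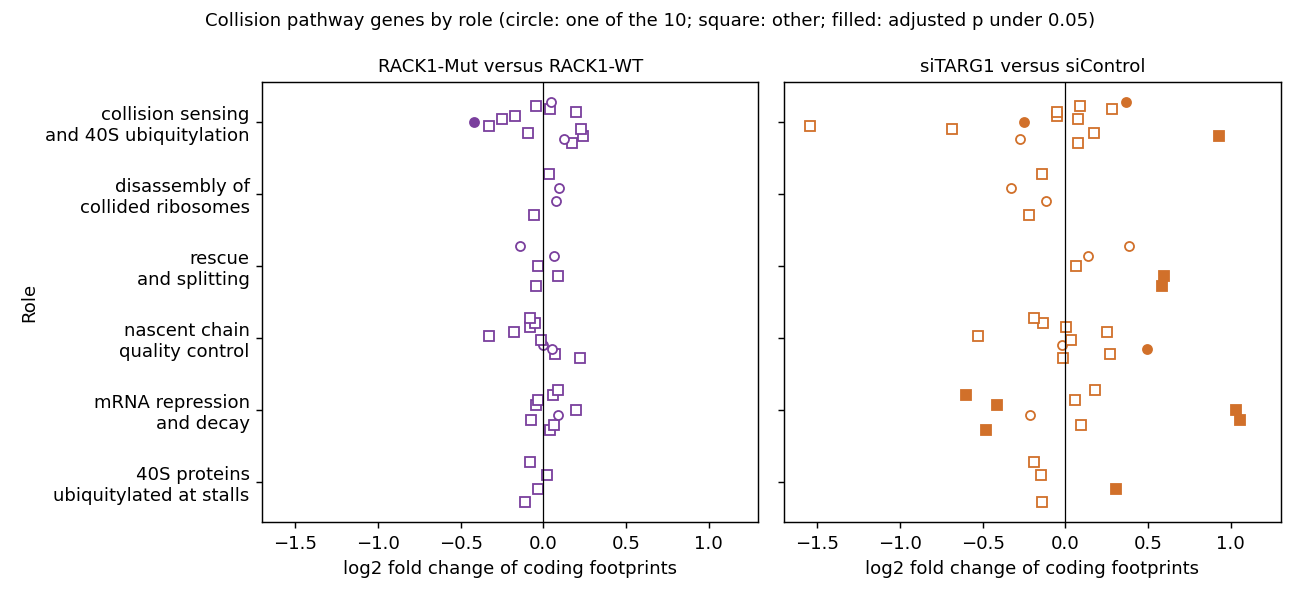
Log2 fold changes of coding footprints for 45 collision pathway genes, by role, in both comparisons, with circles for the 10 members, squares for the other 35 genes, and filled symbols for an adjusted p under 0.05. In RACK1-Mut cells 1 symbol is filled, and in siTARG1 cells 12 are, 5 of them in mRNA repression and decay.

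The UTR footprints of the other members were few, and no UTR-to-coding ratio was called for any gene in either comparison. For the 5′ UTR, DESeq2 called 0% of 6116 genes between RACK1-Mut and RACK1-WT and 0% of 5334 between siTARG1 and siControl, with 39 and 105 genes at an unadjusted p under 0.05, and edgeR gave 248 and 274 at that threshold. For the 3′ UTR it called none of 1879 and of 1766 genes, with 24 and 31 at an unadjusted p under 0.05, and 81 and 83 in edgeR. Of the 10 members 7 had enough 5′ UTR footprints to be tested in each comparison and 2 enough 3′ UTR footprints. None of them had an unadjusted p under 0.05 in DESeq2. In DESeq2 fewer genes fell under 0.05 than that threshold gives where nothing changes. The test was thus strict, and the lack of such a member says little about change.

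Relative to their coding footprints, PELO, ASCC2, ASCC3 and HBS1L carried the most footprints on the 5′ UTR among the members. PELO, which starts with and overlaps ITGA1 on the same strand so that reads at its 5′ end are uncertain, had 8.75 per 100 coding footprints over the siRNA experiment and 7.24 over the RACK1 experiment, ASCC2 5.76 and 4.15, and ASCC3 4.67 and 4.86. HBS1L had 3.79 and 7.55, with 15 and 5 footprints in siControl, 10 and 8 in siTARG1, 29 and 47 with RACK1-WT, and 23 and 29 with RACK1-Mut. Its ratio ran from 2.78 to 5.24 in the libraries of the siRNA experiment and from 5.18 to 10.2 in those of the RACK1 experiment, which overlapped. ZNF598 had no footprint on its 5′ UTR of 74 bases in any library, and LTN1 had 4 in all.

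On the 3′ UTR, the 9 members other than RACK1 had 37 footprints beside 13530 on coding sequences in the siRNA experiment and 32 beside 16067 in the RACK1 experiment. These are 0.273 and 0.199 per 100 coding footprints, against 1.63 and 0.762 over all genes. ASCC2 had 15 and 10, and EDF1 9 and 11. PELO and ASCC3 had none, and for PELO a count of 0 of the 3′ UTR and coding footprints of an experiment allows a share of up to 0.341% in the siRNA and 0.262% in the RACK1 experiment, and for ASCC3 of up to 0.259% and 0.174%.

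Over the 8 libraries, genes whose coding counts ran closely with those of RACK1 were HYOU1 (Pearson's r = 0.967 on the log2 scale), RUVBL1 (0.951), CCT7 (0.909) and ACLY (0.899), out of 1870 genes that averaged 500 or more normalized counts. The libraries fall into 2 experiments and 4 groups and are not independent points, so these values are descriptions. For RUVBL1 the group means, with all libraries scaled together, were 982.5 (siTARG1), 1155 (siControl), 1201 (RACK1-Mut) and 1401 (RACK1-WT). The corresponding means of RACK1 were 12420, 14770, 14760 and 19860. None of these genes is on the pathway list.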

How the data were processed

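The 10 genes, the pathway list and the marker lists were chosen with earlier results of these data known. The values deposited by the authors are whole-number counts of footprints on exons, 5′ UTR, coding sequence and 3′ UTR of each gene region, made with Plastid on hg19 and GENCODE release 24, per the file headers, with reads of 26 to 36 nt. The headers place a read 14 nt from its 5′ end and the methods 12 nt from its 3′ end, which was not resolved and bears on footprints near a start or stop codon. Per the submitters' processing notes and the methods, Bowtie 1.1.2 removed rRNA reads and TopHat2 2.1.1 aligned the rest to transcripts with many hits allowed. The linker carried molecular identifiers meant for removing duplicates, which the methods say were taken off the reads. Whether duplicates were removed before counting is not given in the sources used here. The authors' RPKM columns were used only to work back to the alignments of each library, and the authors' own DESeq2 results are not used.

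Symbols and coordinates come from GENCODE release 44 on GRCh37, which named 19633 regions. Coding counts were tested as in the methods with DESeq2 1.42.0 (R 4.3.3) over the 4 libraries of a comparison, with at least 10 counts summed over them, and a gene was called where its p, adjusted over all genes by Benjamini-Hochberg, was under 0.05. Normalized counts are scaled by the size factors of that fit. Change of a UTR-to-coding ratio is the region by group term of a DESeq2 model. Intervals are the estimate ± its SE scaled to 95%. edgeR 4.0.16 was an alternative. The fits were also run on simulated data, with a set spread between libraries rather than that of these data. The outcome is not reported here. All 10 members were to be named, with called genes of the list up to 8 of largest change, the lowest and highest small subunit genes, and the 5 genes most like RACK1, of which 1 is not reported here.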

Additional observations from a re-analysis of the deposited data

How the results depend on the processing

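Coding fits were repeated with edgeR, TMM factors, no or a stricter count filter, exon counts, all 8 libraries together, thinned libraries, a replicate block and each library left out, where a lone library is assumed to vary like the others. RACK1 kept its direction and call in both comparisons outside the fits that leave out a library, in which its log2 fold change ran from -0.443 to -0.402 (RACK1-Mut) and from -0.33 to -0.168 (siTARG1). Leaving out a library, 0 to 1 members and 0 to 1 pathway genes were called in RACK1-Mut, with none without either RACK1-Mut library, and 0 to 1 members and 2 pathway genes in siTARG1. In siTARG1, edgeR called 5 members (RACK1, ZNF598, EDF1, PELO and LTN1). The replicate block left 6 pathway genes called, and ended the calls of ZNF598 (0.365, adjusted p = 0.13), GTPBP1, N4BP2, SKIC2, SKIC8 and RPS2. The block gave 6 and 1125 calls over all genes and edgeR 30 and 3470, against 10 and 1974. Whether libraries of the same replicate number belong together is not given by the labels. Their deviations from the group mean correlated at 0.083 and 0.031 over genes, which cannot decide it. In the siRNA experiment coding totals went with the number, at 4207939 (siControl) and 4207861 (siTARG1) for replicate 1. For replicate 2 they were 3100947 and 3145173. There the 5′ UTR share of footprints also went with the number, at 3.966% (siControl) and 4.023% (siTARG1) for replicate 1. For replicate 2 it was 4.331% and 4.342%.

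Signs turned only for members that were not called. In RACK1-Mut, ZNF598 was at -0.011 when thinned and ran from -0.005 to 0.094 with a library left out, where ASCC2 ran from -0.022 to 0.179, HBS1L from -0.035 to 0.169 and NEMF from -0.149 to 0.126. NEMF was at 0.001 in edgeR and 0.004 by exon counts, and in siTARG1 it ran from -0.11 to 0.075 with a library left out. No UTR-to-coding ratio of a member was called in any fit, including a filter of 100 UTR footprints chosen after seeing the data. Members with few UTR footprints, and 2 libraries a group, limit what these fits can show.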
